A study of Mus musculus with 40 samples.

Results

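The Reg genes Reg3b, Reg3g, Reg3a, Reg1 and Reg4 encode small secreted lectins. They were chosen by the gene symbol of the array platform, which gave 5 of 16593 genes on the array and 6 probes (2 for Reg3b and 1 for each other gene) of 23978 with 1 gene symbol. Female mice of 2 inbred strains, 9 weeks old and in 4 groups of 5, gave RNA of the colon and of the small intestine. These were BALB/c mice given VSL#3 (a mixture of live probiotic bacteria), BALB/c mice given PBS, C57BL/6 mice given VSL#3 and C57BL/6 mice given PBS. Each mouse was gavaged with 200 µl, 3 times a week for 4 weeks, and gave 1 array per tissue, so that 20 mice gave 40 arrays. All mice were specific-pathogen-free, and the strains came from different suppliers, so strain and supplier cannot be told apart. Values below are normalized log2 signals of a probe, differences are log2 differences with limma's standard error (SE), mice are numbered 1 to 5 within a group, and a call is a Benjamini-Hochberg adjusted p under 0.05 over all probes tested. The 6 probes all passed the detection filter in both tissues.

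Reg proteins are C-type lectins that epithelial cells release into the gut lumen. Reg3g binds and kills mainly Gram-positive bacteria and helps to keep bacteria away from the small intestinal surface, and Reg3b acts on Gram-negative bacteria. Their transcription in the epithelium is raised by bacterial signals through MyD88 and by interleukin 22 through STAT3. Reg1 is a major product of the acinar cells of the exocrine pancreas, and Reg4 marks enteroendocrine cells and the deep crypt secretory cells of the mouse colon.

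In the RefSeq gene table of assembly GRCm38.p6, Reg3b, Reg3d, Reg3a, Reg2, Reg1 and Reg3g stand in this order on chromosome 6, with 1 pseudogene between Reg1 and Reg3g, and Reg4 lies apart on chromosome 3. The promoters of Reg3b and Reg3g are shown because the probes of these 2 genes moved together between mice, with that of their neighbour Reg3a beside them. Each window runs from 250 bases before the gene start through the first 50 bases of the gene, 5′ to 3′ on the gene's strand, in RefSeq sequence of GRCm38.p6, at chr6:78370635-78370934 (plus strand, Reg3b), chr6:78468825-78469124 (minus strand, Reg3g) and chr6:78380459-78380758 (plus strand, Reg3a). Capitals mark the longest run of bases shared with Reg3b, and for Reg3b its longest run shared with Reg3g.
Reg3b: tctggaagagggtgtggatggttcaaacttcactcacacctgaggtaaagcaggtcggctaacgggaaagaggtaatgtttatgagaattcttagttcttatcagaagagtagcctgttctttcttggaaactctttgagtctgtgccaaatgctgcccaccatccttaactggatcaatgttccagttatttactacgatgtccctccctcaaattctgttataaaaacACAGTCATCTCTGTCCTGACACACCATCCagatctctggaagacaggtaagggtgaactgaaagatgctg
Reg3g: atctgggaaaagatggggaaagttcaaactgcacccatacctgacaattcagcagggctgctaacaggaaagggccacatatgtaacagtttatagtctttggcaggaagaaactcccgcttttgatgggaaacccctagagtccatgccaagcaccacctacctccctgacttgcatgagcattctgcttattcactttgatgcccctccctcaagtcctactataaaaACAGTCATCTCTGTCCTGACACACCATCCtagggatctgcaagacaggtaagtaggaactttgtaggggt
Reg3a: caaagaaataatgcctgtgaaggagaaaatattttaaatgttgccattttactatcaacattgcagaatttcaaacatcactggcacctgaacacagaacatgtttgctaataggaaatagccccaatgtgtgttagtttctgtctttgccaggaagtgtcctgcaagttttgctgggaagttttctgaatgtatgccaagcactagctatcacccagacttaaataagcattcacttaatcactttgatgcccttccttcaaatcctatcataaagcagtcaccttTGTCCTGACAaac

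The Reg3b and Reg3g windows shared a run of 29 bases that starts 20 bases before the first base of each gene, whereas the longest run that Reg3b shared with Reg3a was 10 bases. In a global alignment, 69.0% of 310 columns were identical between Reg3b and Reg3g. The other pairs of the 7 Reg genes on the array, Reg2 and Reg3d included, had between 49.1% and 58.5% identical columns. Motifs were searched on both strands. TATAAA was found at -29 in Reg3b and at -27 and -161 in Reg3g, counted from the first base of the gene, and occurs in 13.6% of all 32851 RefSeq promoter windows of this length. TTCNNNGAA, the core of STAT elements, was found once in Reg3b, at -129, and in 8.30% of all windows. TTCNNNGAA was not found in the Reg3g window, and neither motif was found in the windows of Reg3a and Reg4. TATAAA was also found in the windows of Reg2 and Reg1, at -30 in each, and TTCNNNGAA in that of Reg3d, at -238. These matches describe the windows and say nothing of binding.

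The arrays separated by tissue and strain as labelled, with 11898 to 13518 of 25697 probes detected on an array. Sis, a brush border enzyme, averaged between 5.29 and 6.03 in the colon groups and between 13.28 and 13.58 in the small intestine groups. H2-Ea, an MHC class II gene that C57BL/6 mice do not express, averaged between 12.64 and 13.43 in the BALB/c groups and between 5.34 and 5.73 in the C57BL/6 groups. The colon arrays of 3 mice carried high signal of exocrine pancreas genes: the mean of 24 acinar markers was 13.20 and 12.74 in 2 BALB/c mice given VSL#3 and 12.73 in 1 C57BL/6 mouse given PBS, against 10.43 or less in the other 17 colon arrays. Where leaving these 3 arrays out changed a call, turned a sign or moved a difference by over 1.5 times in the colon results of Reg3b, Reg3g, Reg1 or Reg4 below, both values are given.

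Counts over the 6 probes set the frame. In the comparison of VSL#3 with PBS, limma called 0 of 6 Reg probes and 0.0% of all probes, within each strain and each tissue, in the mean of both strains and in the difference of the effects. At an unadjusted p under 0.05, 1 of 6 Reg probes passed in each of 4 of these 8 comparisons, namely Reg3g in the difference of effects in colon, Reg4 in BALB/c small intestine, and Reg1 in C57BL/6 small intestine and in the small intestine mean of both strains. Between 492 and 838 of all probes did so in each comparison. Between BALB/c and C57BL/6, averaged over both treatments, 2 of 6 Reg probes were called in colon, where 19.7% of all probes were, and 4 of 6 in small intestine, where 19.1% were. Among mice given VSL#3, 1 of 6 was called in colon (9.81% of all probes) and 2 of 6 in small intestine (11.4%). Among mice given PBS, 0 of 6 were called in colon (10.3% of all probes, 0 Reg probes at an unadjusted p under 0.05) and 1 of 6 in small intestine (9.82%). Between colon and small intestine, averaged over the 4 groups, 5 of 6 Reg probes and 57.1% of all probes were called.

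**Figure D1:**
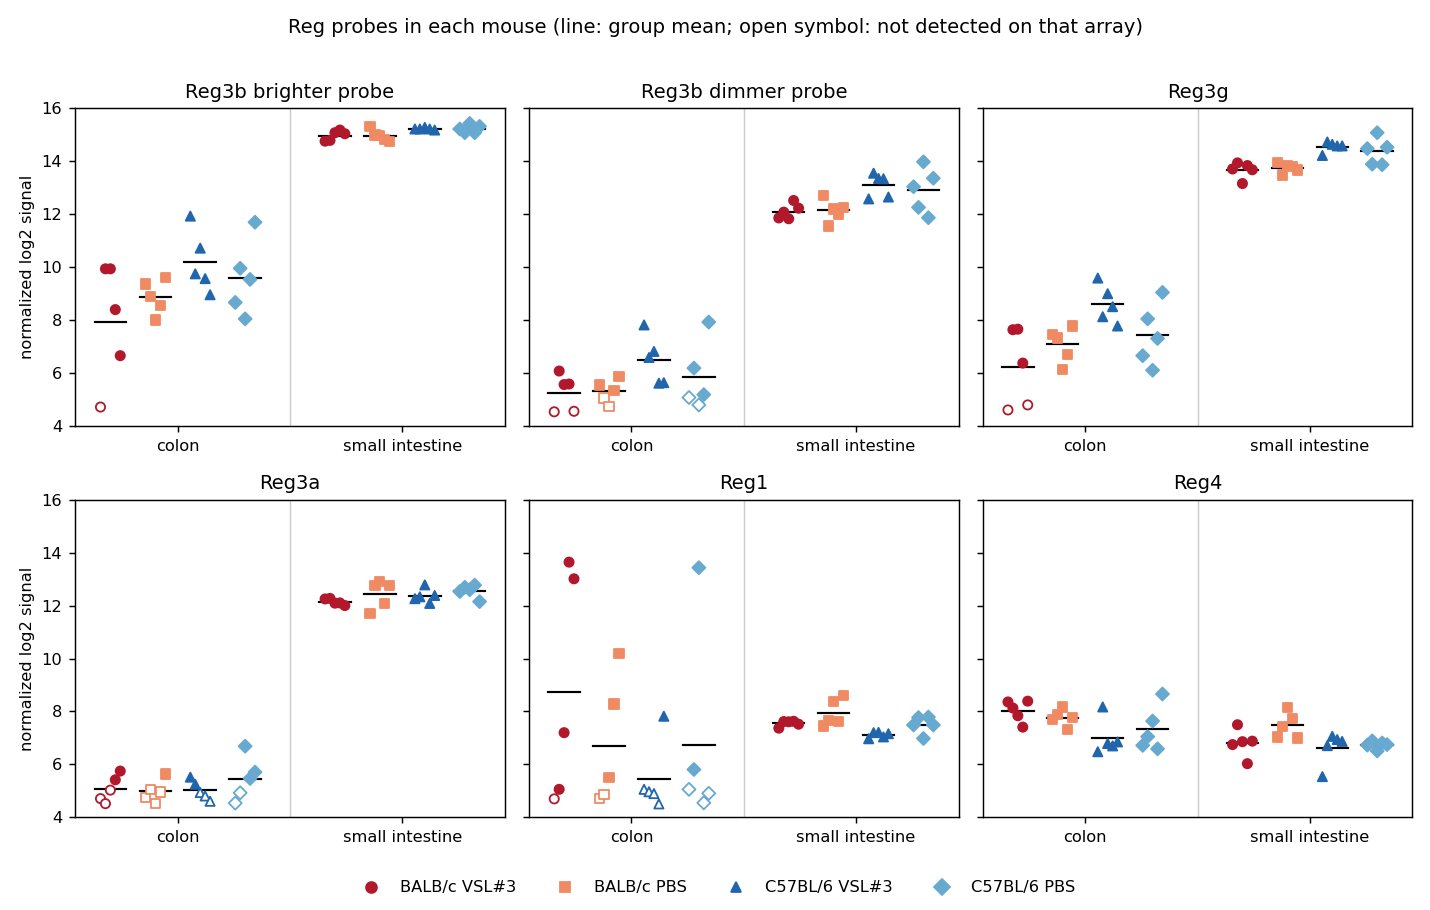
Normalized log2 signal (y axis) of each Reg probe in every mouse, for the 4 groups in colon (left of each panel) and small intestine (right). Each symbol is 1 array, open where the probe was not detected, and lines are group means. Reg3b, Reg3g and Reg3a sit far higher in small intestine, and Reg1 in colon spreads from 4.51 to 13.64.

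Reg3b was lower and more variable in colon than in small intestine, where its brighter probe was close to the top of the measured range. With the brighter of its 2 probes, the colon values were 4.72, 9.94, 9.94, 8.40 and 6.66 in BALB/c mice given VSL#3, where 4 of 5 arrays detected it, against 9.37, 8.89, 8.01, 8.56 and 9.62 in BALB/c mice given PBS. They were 11.93, 9.75, 10.72, 9.57 and 8.96 in C57BL/6 mice given VSL#3, against 8.67, 9.96, 8.05, 9.54 and 11.70 in C57BL/6 mice given PBS. The groups overlapped within each strain, and the lowest and the highest mouse both belonged to groups given VSL#3. In small intestine the same probe read between 14.76 and 15.18 in BALB/c mice given VSL#3, between 14.76 and 15.32 in BALB/c mice given PBS, between 15.18 and 15.28 in C57BL/6 mice given VSL#3 and between 15.08 and 15.43 in C57BL/6 mice given PBS. There, 14 or fewer probes were brighter on any array, with intensities of 26463.5 to 52465.9 where the brightest probe of an array read 35308.4 to 55861.6, and whether this ceiling narrowed the differences was not tested.

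The dimmer Reg3b probe had room above it in small intestine. It read 11.86, 12.08, 11.83, 12.52 and 12.23 in BALB/c mice given VSL#3 and 12.71, 11.56, 12.20, 11.98 and 12.27 in BALB/c mice given PBS. In C57BL/6 mice it read 12.58, 13.55, 13.35, 13.34 and 12.65 with VSL#3 and 13.04, 12.26, 13.98, 11.87 and 13.36 with PBS. All 5 C57BL/6 mice given VSL#3 stood above all 5 BALB/c mice given VSL#3, whereas the PBS groups overlapped. In colon this probe was detected on 14 of 20 arrays and stayed between 4.54 and 7.93.

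Reg3g followed the same outline. Its colon values were 4.61, 7.64, 7.66, 6.38 and 4.80 in BALB/c mice given VSL#3, detected on 3 of 5 arrays, against 7.46, 7.33, 6.15, 6.69 and 7.78 in BALB/c mice given PBS. In C57BL/6 colon they were 9.59, 8.13, 9.00, 8.51 and 7.78 with VSL#3 and 6.66, 8.05, 6.11, 7.31 and 9.05 with PBS. Every C57BL/6 mouse given VSL#3 was higher than every BALB/c mouse given VSL#3, and VSL#3 and PBS mice overlapped in both strains. In small intestine Reg3g read 13.71, 13.94, 13.16, 13.84 and 13.68 in BALB/c mice given VSL#3 and 13.95, 13.48, 13.85, 13.79 and 13.67 in BALB/c mice given PBS. In C57BL/6 small intestine it read 14.22, 14.73, 14.64, 14.58 and 14.58 with VSL#3 and 14.48, 13.89, 15.08, 13.87 and 14.53 with PBS. Here too the strains separated fully among mice given VSL#3 and overlapped among mice given PBS.

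Reg3a, whose human counterpart REG3A is an antibacterial lectin, was a small intestinal signal. In colon it read 5.09 ± 0.51 in BALB/c mice given VSL#3 and 4.99 ± 0.42 in BALB/c mice given PBS (SD, n = 5 each), detected on 2 and 1 arrays. It read 5.03 ± 0.36 in C57BL/6 mice given VSL#3 and 5.47 ± 0.82 in C57BL/6 mice given PBS (SD, n = 5 each), detected on 2 and 3 arrays. In small intestine all 20 arrays detected it, between 11.69 and 12.92, and the 4 groups overlapped.

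Colon was lower than small intestine for these 3 lectins in every group. The mean difference over the 4 groups, computed within each mouse, was -5.95 for Reg3b with the brighter probe (SE 0.294, adjusted p = 1.68e-13), and -6.83 with the dimmer probe (SE 0.207, adjusted p = 3.39e-17), or 114-fold lower. The brighter probe stood near the ceiling of the arrays in small intestine, so no fold is given for it. Colon values of the dimmer probe, detected on 14 of 20 colon arrays, lay partly in the background. Reg3g differed by -6.75 (SE 0.243, adjusted p = 7.46e-16), or 108-fold lower. Both limits touch Reg3g as well: as few as 6 probes were brighter on a small intestine array, and 18 of 20 colon arrays detected it. Reg3a differed by -7.23 (SE 0.134, adjusted p = 9.30e-21), or 150-fold lower, against colon values that lay partly in the background. All 20 mice showed this direction with each of the 4 probes. The Paneth cell markers, which mark the antimicrobial cells of small intestinal crypts, moved the same way: 9 of 9 tested were lower in colon, with a median of -4.77. Of the small intestinal absorptive markers, 10 of 10 tested were lower in colon, with a median of -5.02, against a median of 0.02 over all probes. In whole tissue, fewer cells of a type and less RNA per cell cannot be told apart.

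VSL#3 gave no call for the 3 lectins, and the intervals in colon were wide. Groups given VSL#3 and PBS overlapped for all 6 Reg probes in each strain and tissue, where 0.635% (BALB/c) and 0.859% (C57BL/6) of all probes in colon and 0.821% (BALB/c) and 0.683% (C57BL/6) in small intestine did not overlap. In BALB/c colon, VSL#3 minus PBS was -0.96 for Reg3b with the brighter probe (95% interval -2.68 to 0.76), -0.04 with the dimmer probe and -0.86 for Reg3g (-2.09 to 0.37). In C57BL/6 colon it was 0.60 and 0.66 with the Reg3b probes and 1.17 for Reg3g (95% interval -0.06 to 2.40). The Reg3g effect in BALB/c less that in C57BL/6 was -2.03 (SE 0.836, unadjusted p = 0.0244 and adjusted p = 1 in limma), which is not a call. Without the 3 arrays of high acinar signal, the BALB/c colon effects were -0.69 and 0.08 with the Reg3b probes and -0.45 for Reg3g, the C57BL/6 effects were 0.22, 0.40 and 0.83, and the Reg3g difference of effects was -1.28 (SE 0.856, limma adjusted p = 0.999). In small intestine the mean over both strains was 0.08 with the dimmer Reg3b probe (95% interval -0.37 to 0.53) and 0.05 for Reg3g (-0.23 to 0.33). With the brighter Reg3b probe, near its ceiling, it was -0.00 (-0.17 to 0.17). For Reg3a the small intestinal mean was -0.24 (95% interval -0.52 to 0.04).

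The strains differed in the signal of Reg3g and, less firmly, of Reg3b, with lower values in BALB/c. Whether the strains differ in sequence under any Reg probe, and so in its signal, was not tested, because probe sequences were not at hand. In small intestine, averaged over both treatments, BALB/c minus C57BL/6 was -0.75 for Reg3g (SE 0.136, limma adjusted p = 0.000272), or 1.69-fold lower. This call held with each of the 20 mice left out in turn (adjusted p up to 0.000747) and under 11 other settings (adjusted p up to 0.00238). Reg3b was lower by 1.83-fold with the dimmer probe (-0.87, SE 0.217, adjusted p = 0.0058) and by 1.19-fold with the brighter one (-0.25, SE 0.0811, adjusted p = 0.0304). The call of the brighter probe was lost with median scaling (-0.19, adjusted p = 0.205, where 11 other settings ranged down to 0.00421), with a block for the title number (adjusted p = 0.0519) and on leaving out any of 7 mice, namely BALB/c VSL#3 mice 1 and 2, BALB/c PBS mice 4 and 5, C57BL/6 VSL#3 mouse 3 or C57BL/6 PBS mice 3 and 5 (adjusted p between 0.0523 and 0.0628). Reg3a differed by -0.16 (SE 0.136), which was not called.

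Within one treatment, the small intestinal Reg3g difference was -0.89 among mice given VSL#3 (SE 0.192, adjusted p = 0.00298) and -0.62 among mice given PBS (SE 0.192, adjusted p = 0.042). The PBS call was lost on leaving out BALB/c PBS mouse 2, 3, 4 or 5 or C57BL/6 PBS mouse 1, 3 or 5, with differences between -0.65 and -0.44, and under 9 of 12 other settings. The dimmer Reg3b probe differed by -0.99 among mice given VSL#3 (SE 0.306, adjusted p = 0.0393), a call lost on leaving out BALB/c VSL#3 mouse 1, 2, 3 or 5 or C57BL/6 VSL#3 mouse 2, 3 or 4, with differences between -1.02 and -0.87, and under 7 of 11 other settings. Among mice given VSL#3, the groups of 5 did not overlap for 3 of 6 Reg probes (Reg3g, the dimmer Reg3b probe and Reg1), as for 10.4% of all probes. Among mice given PBS they did not overlap for 1 of 6 (Reg4), as for 8.4% of all probes.

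In colon the Reg3g difference averaged -1.37 over both treatments (SE 0.418, adjusted p = 0.0232), or 2.58-fold lower in BALB/c, and the call held with each mouse left out (adjusted p up to 0.0475) and under 9 of 12 other settings. Among mice given VSL#3 it was -2.38 (SE 0.591, adjusted p = 0.0107), or 5.22-fold lower in BALB/c, with groups that did not overlap for 1 of 6 Reg probes (9.17% of all probes). Among mice given PBS it was -0.35 (SE 0.591, adjusted p = 0.812), or -0.69 without the 3 arrays of high acinar signal (adjusted p = 0.58), and the groups did not overlap for 0 of 6 Reg probes, where 8.79% of all probes did not. Without these arrays, the difference among mice given VSL#3 was -1.96 and was not called (adjusted p = 0.0727, the highest of 13 other settings, whose lowest was 0.00904). Reg3b differed on average by -1.47 with the brighter probe (SE 0.584, adjusted p = 0.0846) and by -0.88 with the dimmer one (SE 0.352, adjusted p = 0.0892). Neither passed, although the brighter one passed on leaving out BALB/c VSL#3 mouse 2 or 3 (-1.73 in each case, adjusted p = 0.0391 and 0.0401).

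**Figure D2:**
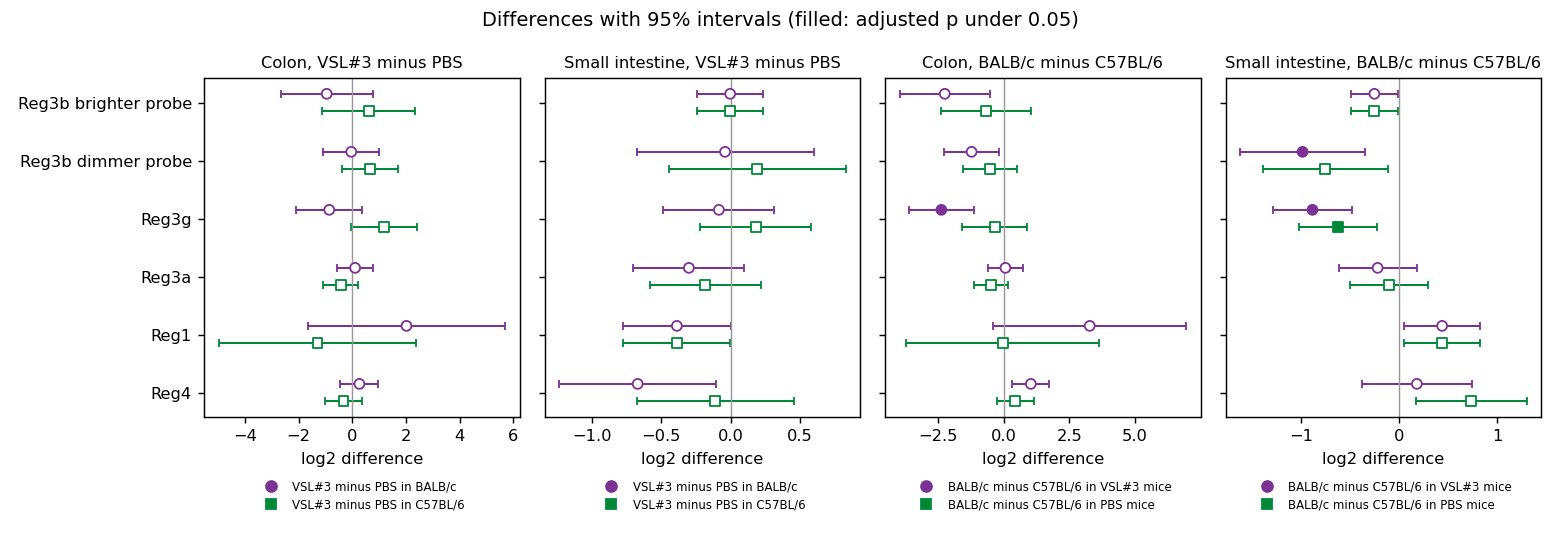
Log2 differences (x axes) of the 6 Reg probes (rows) with 95% intervals, for VSL#3 minus PBS in each strain and for BALB/c minus C57BL/6 under each treatment, in colon and small intestine. Filled symbols have an adjusted p under 0.05. No VSL#3 difference is filled, and the filled strain differences are Reg3g in 3 comparisons and the dimmer Reg3b probe in small intestine.

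Paneth cell markers were lower in BALB/c as well in small intestine, whereas in colon their calls went both ways. In small intestine, where 19.1% of all probes were called, 7 of 9 tested were lower in BALB/c and 0 were higher, with a median of -0.67 against 0.02 over all probes; the smallest p values belonged to the defensin Defa21 (-3.21, SE 0.129) and to Ang4, an antimicrobial ribonuclease (-2.09, SE 0.0912). The mean of the 9 markers lay between 11.51 and 11.78 in BALB/c mice given VSL#3, between 11.44 and 11.97 in BALB/c mice given PBS, between 13.42 and 13.61 in C57BL/6 mice given VSL#3 and between 13.30 and 13.54 in C57BL/6 mice given PBS, with at least 8 of 9 detected on each array. In colon, where 19.7% of all probes were called, 7 Paneth markers were tested, 1 was higher (Lyz1, 0.74) and 1 lower (Ang4, -3.35) in BALB/c, and the median was -1.14. Their mean lay between 6.74 and 9.14 in BALB/c colon with VSL#3, between 7.70 and 9.50 with PBS, between 8.85 and 10.73 in C57BL/6 colon with VSL#3 and between 8.73 and 10.37 with PBS, with 3 to 7 of 7 detected. Their part in the Reg3g and Reg3b differences was not tested, nor was the cell type behind their colon signal. Other mucosal antimicrobial and IL-22-responsive genes, which share Ang4, Itln1, Lyz1 and Pla2g2a with the Paneth list, had 1 higher and 5 lower of 15 tested in small intestine (median -0.41) and 3 higher and 1 lower of 16 in colon (median 0.05).

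Genes known to act upstream of Reg3b and Reg3g were counted against the 19.7% of all probes called between the strains in colon and the 19.1% in small intestine. Of the IL-22, IL-17 and STAT3 genes, 1 of 13 tested was higher and 1 lower in BALB/c colon, and 1 of 12 higher and 1 lower in small intestine, with medians of 0.09 and -0.09. In both tissues these were Tyk2, a Janus kinase (0.30 in colon, 0.20 in small intestine), and Il6st, the shared receptor chain gp130 (-1.27 in colon, -1.35 in small intestine). Of the microbial sensing genes, 1 of 12 was higher and 2 lower in BALB/c colon, and 1 higher and 1 lower in small intestine. Ly96, the TLR4 co-receptor MD-2, differed by -1.37 in colon and -1.77 in small intestine, Nfkbiz, an NF-kB regulator, by -0.74 in colon, Tlr2 by 0.56 in colon and Nod1 by 0.28 in small intestine. VSL#3 minus PBS gave 0 calls in these lists in either strain and tissue, with limma, and medians between -0.13 and 0.09. Of their genes, the receptor subunit Il10rb (0.20, unadjusted p = 0.0446) and the kinase Jak1 (0.44, unadjusted p = 0.0642) had the smallest p of the IL-22 list in C57BL/6 colon. In BALB/c colon these were Il6st (0.31, unadjusted p = 0.227) and Jak1 (-0.22, unadjusted p = 0.332), and the smallest p of the sensing list was that of Nfkbiz (0.52, unadjusted p = 0.00516).

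The Reg3b and Reg3g probes rose and fell together from mouse to mouse in colon. Probe sequences were not at hand, so whether a probe of one gene also binds RNA of the other was not tested. After each group's mean was subtracted, the brighter Reg3b probe and Reg3g correlated over the 20 colon arrays with Pearson's r = 0.961 and Spearman's rho = 0.971 (two-sided permutation test within groups, p = 1e-05 for each, the smallest that 100000 resamples can give, adjusted p = 7.50e-05 over 15 pairs). Without the 2 arrays farthest from the median, r was 0.970, and it was 0.956 over the 10 BALB/c mice and 0.971 over the 10 C57BL/6 mice. The dimmer Reg3b probe correlated with Reg3g with r = 0.838 and rho = 0.842 (permutation, adjusted p = 0.0001 for r and 0.0002 for rho), and r = 0.826 without the 2 farthest arrays. The 2 Reg3b probes correlated with r = 0.835 and rho = 0.901 (permutation, adjusted p = 7.50e-05 for each), and r = 0.877 without the 2 farthest. Neither Reg3b nor Reg3g showed a relation with Reg3a, Reg1 or Reg4 in colon that passed (r between -0.33 and 0.24 over 9 pairs, permutation, adjusted p between 0.828 and 0.899, and r between -0.56 and -0.11 without the 2 farthest arrays). The values with Reg3a moved without the arrays of high acinar signal: they were 0.05 and 0.12 for the brighter and the dimmer Reg3b probe and -0.05 for Reg3g over the 20 arrays, and 0.490, 0.625 and 0.529 over the other 17, given as a description.

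**Figure D3:**
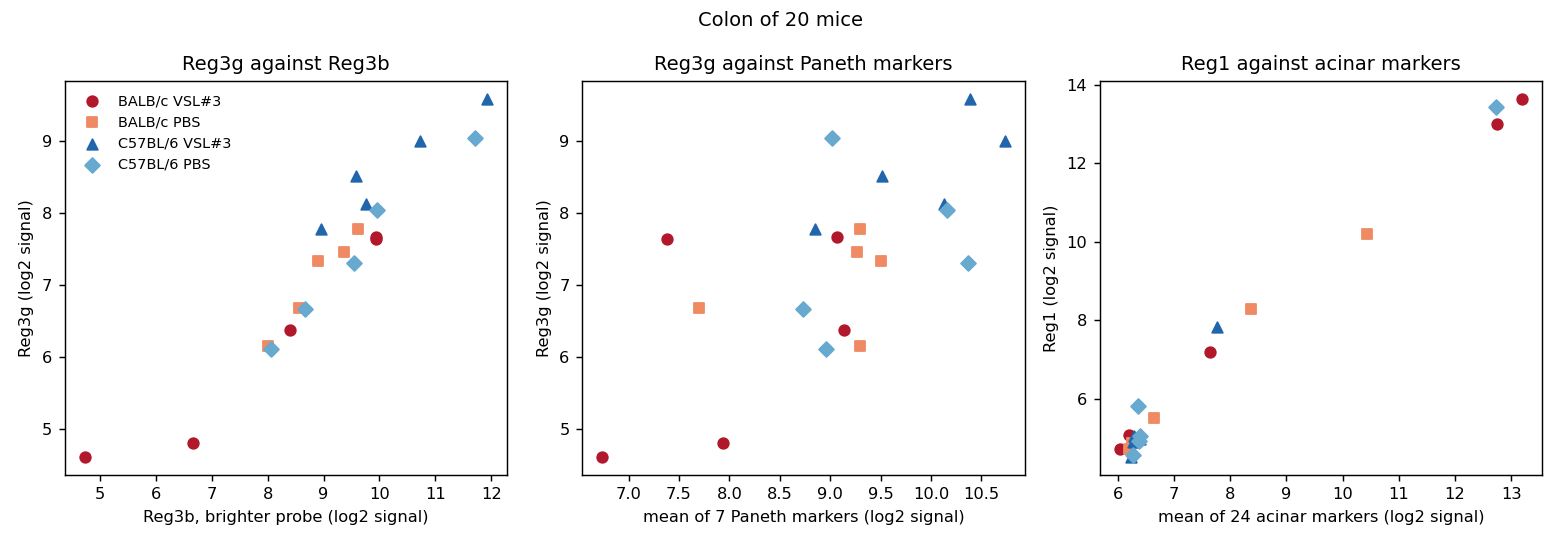
Colon of the 20 mice, 1 symbol per array, all axes in normalized log2 signal: Reg3g against the brighter Reg3b probe, Reg3g against the mean of 7 Paneth markers, and Reg1 against the mean of 24 pancreatic acinar markers. Reg3b and Reg3g lie on one band across all groups, the Paneth relation is loose, and Reg1 rises with the acinar mean.

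In small intestine the dimmer Reg3b probe and Reg3g correlated with r = 0.859 and rho = 0.795 (permutation within groups, n = 20, adjusted p = 0.00045 for r and 0.0042 for rho), and r = 0.751 without the 2 farthest arrays. The brighter Reg3b probe, near its ceiling, gave r = 0.356 and rho = 0.272 with Reg3g (permutation, adjusted p = 0.277 for r). Between a mouse's colon and small intestinal value, none of the 6 probes gave a relation that passed (r between -0.36 and 0.22, rho between -0.21 and 0.13, permutation, adjusted p between 0.933 and 0.946 for r over 6 relations). In colon the mean of the 7 Paneth markers correlated with the brighter Reg3b probe with r = 0.482 and rho = 0.484 (permutation, n = 20, adjusted p = 0.117 for r over 2 relations), and r = 0.303 without the 2 farthest arrays. With Reg3g it gave r = 0.432 and rho = 0.459 (permutation, adjusted p = 0.117 for r), and 0.281 without the 2 farthest. The gene whose colon pattern was most like both lectins, among genes outside the family, was Slc51a, a subunit of the bile acid exporter of the basolateral membrane, with r = 0.791 to Reg3b and 0.820 to Reg3g over the 20 group-centred arrays. In small intestine it was Psmc3, a proteasome subunit, for Reg3b (r = 0.856) and Tifa, a signalling adaptor, for Reg3g (r = 0.861). For Reg3a the most alike genes were Gstm1, a glutathione transferase, in colon (r = 0.828) and Trps1, a GATA-type transcription factor, in small intestine (r = 0.807). These genes were picked for the highest r among 13385 probes in colon and 13035 in small intestine. Without the 2 farthest arrays, r was 0.699 and 0.745 for Slc51a with Reg3b and Reg3g. It was then 0.771 for Psmc3, 0.813 for Tifa, 0.754 for Gstm1 and 0.633 for Trps1.

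Reg1 split the colon arrays into a few very high and many undetected ones. Its colon values were 4.70, 5.06, 7.20, 13.64 and 13.01 in BALB/c mice given VSL#3, against 4.71, 4.87, 5.51, 8.28 and 10.19 in BALB/c mice given PBS. In C57BL/6 colon they were 5.06, 4.97, 4.90, 4.51 and 7.82 with VSL#3 and 5.06, 5.81, 13.43, 4.55 and 4.91 with PBS. The probe was detected on 4, 3, 1 and 2 arrays of these groups of 5. The range was set by 1 high mouse in each C57BL/6 group and by 2 high mice in each BALB/c group. The 3 highest arrays were the 3 with the highest pancreatic acinar signal, and the 7 highest for Reg1 were also the 7 highest for that signal.

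The acinar markers (digestive enzymes of the exocrine pancreas, such as trypsins and lipases) covered 24 genes, all of them detected on 4 of the 20 colon arrays and 7 to 23 on the others. Their mean was 13.20 and 12.74 in BALB/c VSL#3 mice 4 and 5, where Reg1 read 13.64 and 13.01, and 12.73 in C57BL/6 PBS mouse 3, where Reg1 read 13.43. It was 10.43 in BALB/c PBS mouse 5, with Reg1 at 10.19, and 6.04 in the lowest array, with Reg1 at 4.70. The 3 colon genes most like Reg1 were pancreatic enzymes, Try4 (a trypsin), Rnase1 (a pancreatic ribonuclease) and Pnliprp1 (a lipase-related protein), with r of 0.995, 0.995 and 0.994 over the 20 group-centred arrays. These r were 0.990, 0.991 and 0.992 without the 2 farthest arrays. Reg2 and Reg3d, detected on 3 and 4 colon arrays and 0 small intestine arrays and therefore not fitted, were highest on the same arrays: Reg2 read 7.27, 7.85 and 9.12, and Reg3d 6.79, 6.65 and 7.37, in BALB/c VSL#3 mice 4 and 5 and C57BL/6 PBS mouse 3.

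The colon comparisons of Reg1 had wide errors. VSL#3 minus PBS was 2.01 in BALB/c (SE 1.77, limma adjusted p = 0.999) and -1.30 in C57BL/6 (SE 1.77, adjusted p = 0.95). BALB/c minus C57BL/6 averaged 1.62 (SE 1.25, adjusted p = 0.431). Without the 3 arrays of high acinar signal both VSL#3 differences changed sign, to -1.06 in BALB/c (SE 1.03, adjusted p = 0.997) and 0.37 in C57BL/6 (SE 0.942, adjusted p = 0.958), and the strain mean was 0.92 (SE 0.696, adjusted p = 0.443). These values are not free of acinar signal. The arrays kept include BALB/c PBS mouse 4 (acinar mean 8.38, Reg1 8.28) and mouse 5 (acinar mean 10.43, Reg1 10.19). Reg3a in colon correlated with Reg1 with r = 0.712 and rho = 0.586 (permutation, n = 20, adjusted p = 0.0169 for r and 0.0653 for rho), and r was 0.601 without the 2 farthest arrays and 0.266 without the 3 arrays of highest acinar signal.

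In small intestine Reg1 was detected in every mouse. It read 7.37, 7.62, 7.61, 7.63 and 7.52 in BALB/c mice given VSL#3 and 7.45, 7.66, 8.37, 7.63 and 8.59 in BALB/c mice given PBS. In C57BL/6 mice it read 6.97, 7.20, 7.21, 7.04 and 7.16 with VSL#3 and 7.49, 7.77, 6.98, 7.79 and 7.49 with PBS. All 5 BALB/c mice given VSL#3 stood above all 5 C57BL/6 mice given VSL#3. BALB/c minus C57BL/6 averaged 0.44 (SE 0.131, limma adjusted p = 0.0222), or 1.35-fold higher in BALB/c, and was called with each mouse left out and under 11 other settings (adjusted p up to 0.0454). VSL#3 minus PBS was -0.39 in each strain and -0.39 in their mean (SE 0.131, unadjusted p = 0.00773, adjusted p = 0.999, rank 74 of 13035 probes by p), so it was not called. The mean of the acinar markers in small intestine stayed between 5.80 and 6.32 over the 20 arrays for all 24 genes. Of the 10 acinar genes tested there, 2 were higher and 4 lower in BALB/c, with a median of -0.28. The small intestinal gene most like Reg1 was Baat, which conjugates bile acids to amino acids (r = 0.853 over 20 group-centred arrays). This r was 0.784 without the 2 farthest arrays.

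Between tissues, Reg1 differed by -0.62 in colon against small intestine (SE 0.641, limma adjusted p = 0.436). Without the 3 mice of high acinar signal in colon, the difference was -1.83 and passed (adjusted p = 0.000121).

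Reg4 was detected on all 40 arrays and was the 1 Reg gene called higher in colon. Its colon values were 8.36, 8.13, 7.84, 7.41 and 8.39 in BALB/c mice given VSL#3, against 7.70, 7.88, 8.17, 7.33 and 7.76 in BALB/c mice given PBS. In C57BL/6 colon they were 6.48, 8.17, 6.79, 6.70 and 6.85 with VSL#3 and 6.72, 7.05, 7.64, 6.59 and 8.66 with PBS. In each C57BL/6 group 1 mouse stood above 8 and the others below 8. In small intestine it read 6.75, 7.50, 6.86, 6.03 and 6.88 in BALB/c mice given VSL#3 and 7.04, 7.44, 8.14, 7.74 and 7.0 in BALB/c mice given PBS. In C57BL/6 small intestine it read 5.54, 6.71, 7.06, 6.94 and 6.87 with VSL#3 and 6.73, 6.89, 6.51, 6.81 and 6.75 with PBS. Among mice given PBS, every BALB/c value lay above every C57BL/6 value, whereas the other pairs of groups overlapped.

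Colon minus small intestine averaged 0.62 for Reg4 (SE 0.138, limma adjusted p = 0.000564), or 1.54-fold higher in colon. By group it was called in BALB/c mice given VSL#3 (1.22, SE 0.275, adjusted p = 0.00135), where 5 of 6 Reg probes and 35.5% of all probes were called. It was 0.29 in BALB/c mice given PBS, 0.37 in C57BL/6 mice given VSL#3 and 0.60 in C57BL/6 mice given PBS (SE 0.275 each), none of them called. In these groups 4 of 6 Reg probes were called, all lower in colon, beside 35.1%, 37.2% and 36.9% of all probes. The tissue difference of BALB/c less that of C57BL/6 was 0.27 (SE 0.275, adjusted p = 0.641). That contrast called 0 of 6 Reg probes and 6.74% of all probes in limma, and 0 Reg probes had an unadjusted p under 0.05.

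In colon Reg4 was 1.66-fold higher in BALB/c than in C57BL/6 over both treatments (0.73, SE 0.24, limma adjusted p = 0.0343). This call was not stable: it was lost on leaving out any 1 of 12 of the 20 mice (BALB/c VSL#3 mice 1, 2 and 5, BALB/c PBS mice 2 and 3, C57BL/6 VSL#3 mice 1, 3, 4 and 5 and C57BL/6 PBS mice 1, 2 and 4), with differences between 0.64 and 0.72 and adjusted p between 0.0535 and 0.0689, and under 6 of 12 other settings. Among mice given VSL#3 the difference was 1.03 (SE 0.339, adjusted p = 0.059), and it was 1.32 and called without C57BL/6 VSL#3 mouse 2 (adjusted p = 0.00866) and 1.18 and called without BALB/c VSL#3 mouse 4 (adjusted p = 0.043). In small intestine the mean difference was 0.46 (SE 0.192, adjusted p = 0.106), and it was 0.55 and called without BALB/c VSL#3 mouse 4 (adjusted p = 0.0399). VSL#3 minus PBS for Reg4 in small intestine was -0.67 in BALB/c (SE 0.272, unadjusted p = 0.0226, adjusted p = 0.779) and -0.11 in C57BL/6, with a difference of effects of -0.56 (SE 0.384, adjusted p = 0.938).

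Of the enteroendocrine markers, which name one cell type known to hold Reg4, 5 of 12 tested were higher and 0 lower in BALB/c colon, beside 19.7% of all probes called there (Pyy 0.81, Gcg 0.70, Tph1 0.56, Chgb 0.49 and Insl5 0.34), with a median of 0.10. In small intestine, where 19.1% of all probes were called, 2 of 11 were higher (Gcg 0.96 and Pyy 0.45) and 0 lower. Of the goblet cell markers, 0 of 8 were higher and 2 lower in BALB/c colon, Clca1 (-0.33) and Spink4 (-0.51). The mean of the 12 enteroendocrine markers lay between 8.00 and 8.22 in BALB/c colon with VSL#3, between 7.76 and 8.15 with PBS, between 7.65 and 7.95 in C57BL/6 colon with VSL#3 and between 7.74 and 8.35 with PBS, with at least 8 of 12 detected. Their part in the Reg4 difference was not tested. The genes most like Reg4 were Timm21, a mitochondrial import factor, in colon (r = 0.823) and Fzd1, a Wnt receptor, in small intestine (r = 0.827), over 20 group-centred arrays each. These r were 0.706 and 0.817 without the 2 farthest arrays.

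The Reg probes were among the most variable between mice of a group in colon. Pooled over the 4 groups, the SD within a group was 1.48 for the brighter Reg3b probe, 0.89 for the dimmer one, 1.06 for Reg3g, 0.56 for Reg3a, 3.18 for Reg1 and 0.60 for Reg4. The median SD of all 13385 probes was 0.25. Without the 3 arrays of high acinar signal it was 1.64 for Reg1 and 0.41 for Reg3a, a value above 92.4% of the probes, and between 0.62 and 1.52 for the others. Reg4 had a higher SD than 98.5% of the probes, but than 76.3% without background correction and 76.5% in the matched normalized table. In colon, 8 probes had a larger SD than Reg1, 35 than the brighter Reg3b probe and 54 than Reg3g. The spread of the brighter Reg3b probe and of Reg3g was largest in BALB/c mice given VSL#3, with an SD of 2.25 and 1.48. It was 0.64 and 0.65 in BALB/c mice given PBS. In C57BL/6 mice it was 1.16 and 0.72 with VSL#3, against 1.40 and 1.16 with PBS. The dimmer Reg3b probe had its largest SD in C57BL/6 mice given PBS, at 1.28, against 0.92 in C57BL/6 mice given VSL#3. In BALB/c mice its SD was 0.69 with VSL#3 and 0.44 with PBS. These spreads were described and not tested.

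In small intestine the SD was 0.16 for the brighter Reg3b probe near its ceiling, 0.54 for the dimmer one, 0.32 for Reg3g, 0.32 for Reg3a, 0.31 for Reg1 and 0.48 for Reg4, against a median of 0.26 over 13035 probes. Reg4 and the dimmer Reg3b probe had a higher SD than 97.4% and 98.9% of those probes, but than 73.2% and 71.6% without background correction.

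**Figure D4:**
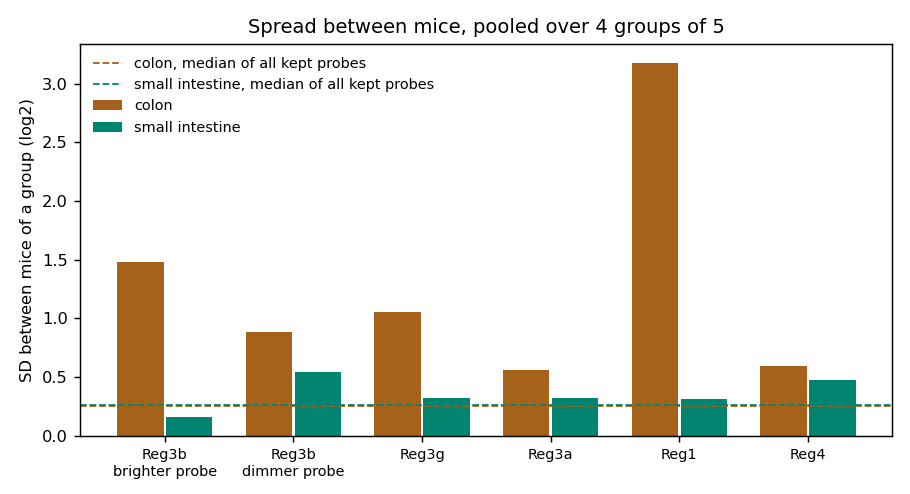
SD between mice of a group, in log2 units (y axis), pooled over the 4 groups of 5, for each Reg probe in colon and small intestine. Dashed lines mark the median SD of all probes tested in each tissue, 0.25 in colon and 0.26 in small intestine. Reg1 (3.18, or 1.64 without the 3 arrays of high acinar signal), the brighter Reg3b probe (1.48) and Reg3g (1.06) are the highest in colon.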

How the data were processed

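The study hybridised 500 ng of total RNA per sample, as 750 ng of cRNA, to Illumina MouseRef-8 BeadChips. The authors deposited one intensity per probe and array that was not normalized but can be negative (21.4% to 25.1% per array), and beside it a detection fraction, read as 1 minus the detection p. The authors also deposited a log2 quantile-normalized table; its 10 VSL#3 colon columns correlated best with arrays of the other strain, so it served as an alternative only. The submitters' processing notes name limma, with no version. Here, limma 3.58.1 (R 4.3.3) neqc with offset 16 and quantile normalization was run over 40 arrays. Probes with 1 gene symbol and a detection p under 0.05 on at least 5 arrays were fitted with lmFit and eBayes, as 4 group means per tissue (13385 probes in colon, 13035 in small intestine) or as within-mouse tissue differences (14711 probes), with Benjamini-Hochberg adjustment. The fit and the correlations were tested on simulated data. Permutations were run with scipy 1.17.1 and alignments with Biopython 1.88. Members and gene lists were chosen with earlier results of these data known. The SD without the 3 colon arrays of high acinar signal, the Paneth relations and the promoter searches were added after seeing the data. Every probe of the 5 symbols was described, with, from each list, counts of calls and leading genes by p, and, per tissue, the genes of highest correlation. Deviations of same-numbered mice of different groups correlated over 0.1 in at most 3 of 5 pairs, with r between -0.35 and 0.43. Pairs with unlike numbers were not computed for reference. The title numbers were not taken as pairs, and a block for them was run as an alternative. Number of arrays limits the precision, and no counts underlie these values.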

Additional observations from a re-analysis of the deposited data

Results flagged for a closer look

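Of 48 groups of 5 arrays tested for 1 array far from the others (8 groups for each of 6 Reg probes), 4 stood out, where chance gives about 1 in 20. Reg1 in the colon of C57BL/6 VSL#3 mouse 5 read 7.82, against 5.06 in the next mouse, and the mean of the 24 acinar markers on that array was 7.76, the highest of its group. Reg1 in the colon of C57BL/6 PBS mouse 3 read 13.43, against 5.81 in the next mouse, with an acinar mean of 12.73, also the highest of its group. The part of acinar RNA in both values was not tested. Reg4 in the colon of C57BL/6 VSL#3 mouse 2 read 8.17, against 6.85 in the next mouse. Reg4 in the small intestine of C57BL/6 VSL#3 mouse 1 read 5.54, the lowest of all 40 arrays, against 6.71 in the next mouse.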

How the results depend on the processing

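Counts are of the 6 Reg probes past the threshold. All 8 VSL#3 comparisons stayed at 0 under every alternative run. For strain in colon with VSL#3 (1), the count was 2 with the stricter filter, only the groups compared, array weights or the replicate block, 0 without the 3 arrays of highest acinar signal, and 1 to 2 on leaving out single mice. For the colon strain mean (2), it was 0 without background correction and with either reading of the normalized table, 1 with no filter, trend and robust eBayes or array weights, and 1 to 3 on leaving out single mice. For strain in small intestine with PBS (1), it was 0 without background correction or filter, with median scaling, trend and robust eBayes, the normalized table, the replicate block or the letter block, and 0 to 2 on leaving out single mice. With VSL#3 (2), it was 1 under the same settings except the letter block, up to 3 under the remaining settings, and 1 to 2 on leaving out single mice. The small intestinal strain mean (4) gave 3 to 5, and tissue 4 to 6. With the normalized table as labelled, Reg3g in colon turned to 3.70 with VSL#3 (adjusted p = 0.0426) and to 1.66 in the mean, and Reg4 to -0.33, where 10 columns carry arrays of the other strain; with columns matched, the Reg4 mean was 0.82. Without background correction, the colon Reg3g mean was -2.04 (adjusted p = 0.0818). One probe per gene gives no count, and no exact permutation test was run for differences of effects. The smallest exact p of 5 against 5 is 0.00794. Array number limits precision, and colon Reg3a and Reg1 lay mostly near background.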
